A study of Mus musculus with 12 samples.

Results

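Of the 11015 genes measured, 7 genes of lipid transport and fatty acid handling were followed in cultured mouse aortic endothelial cells with or without the transcription factors Ets1 and Ets2. They were Apoe, Vldlr, Cd36, Fabp4, Adipoq, Pla2g7 and Acot11, which 13 probe sets of the array named by symbol. The genes were selected on earlier results from the log2 values of these same arrays, with no record of which contrast was used, so their differences between groups describe them and are no independent evidence. The cells came from aortas of mice aged 4 weeks. Wild-type cells were Ets1+/+; Ets2+/+, the Ets1 null group was Ets1-/-; Ets2fl/fl, the Ets2 null group Ets1+/+; Ets2fl/fl, and the double null group Ets1-/-; Ets2fl/fl. Every culture carried a lentivirus with the green fluorescent protein gene egfp, and in the Ets2 null and double null groups that virus also carried Cre recombinase, which deletes the floxed Ets2 allele. Cre and Ets2 loss can therefore not be told apart, and the Ets1 null cells differ from wild type by an intact floxed Ets2 allele as well as by Ets1. Wild type, Ets1 null and Ets2 null had 3 arrays each. The group labelled Ets1/2 null had 2, because the third column of that group was the mean of the other 2 in 99.9903% of probe sets and was left out.

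Lipids travel in blood as lipoproteins, and apolipoprotein E, the product of Apoe, is the ligand by which remnant particles bind receptors of the low-density lipoprotein receptor family. The very low-density lipoprotein receptor (Vldlr) is one of these receptors. Lipoprotein lipase (Lpl) frees fatty acids from the particles at the vessel surface, CD36 takes them up, and fatty acid binding protein 4 (Fabp4) carries them inside endothelial cells, macrophages and fat cells. Adipoq encodes adiponectin, a hormone of fat cells. Pla2g7 encodes the lipoprotein-associated phospholipase that cleaves platelet-activating factor and oxidised phospholipids, and Acot11 an acyl-CoA thioesterase, which releases free fatty acids from coenzyme A. Fabp4, Cd36, Adipoq and Lpl are textbook targets of PPAR gamma, the nuclear receptor that drives fat cell formation.

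Ets1 and Ets2 bind DNA around a GGAA core, so the 250 bases before the start site are shown for a lipid carrier, a receptor, a fatty acid transporter and an adipokine, all from RefSeq on build GRCm38.p6. Each is written 5′ to 3′ along the gene, with GGAA or its reverse complement TTCC in capitals.
Apoe, first start site, minus strand, chr7:19699189-19699438: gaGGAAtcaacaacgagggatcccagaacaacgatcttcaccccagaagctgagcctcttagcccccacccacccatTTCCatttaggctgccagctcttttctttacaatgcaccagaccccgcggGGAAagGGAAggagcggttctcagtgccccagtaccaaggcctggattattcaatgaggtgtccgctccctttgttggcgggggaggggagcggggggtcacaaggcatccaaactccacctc
Vldlr, first start site, plus strand, chr19:27216234-27216483: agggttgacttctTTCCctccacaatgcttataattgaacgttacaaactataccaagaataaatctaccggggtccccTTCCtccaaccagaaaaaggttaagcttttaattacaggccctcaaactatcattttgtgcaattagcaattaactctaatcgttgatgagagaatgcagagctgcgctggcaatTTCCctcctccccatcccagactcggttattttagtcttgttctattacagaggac
Cd36, minus strand, chr5:17835897-17836146: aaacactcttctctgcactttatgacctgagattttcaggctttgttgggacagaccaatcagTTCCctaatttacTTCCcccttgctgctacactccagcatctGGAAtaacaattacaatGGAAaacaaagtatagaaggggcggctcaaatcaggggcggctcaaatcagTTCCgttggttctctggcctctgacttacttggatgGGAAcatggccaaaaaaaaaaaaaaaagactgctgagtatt
Adipoq, plus strand, chr16:23146286-23146535: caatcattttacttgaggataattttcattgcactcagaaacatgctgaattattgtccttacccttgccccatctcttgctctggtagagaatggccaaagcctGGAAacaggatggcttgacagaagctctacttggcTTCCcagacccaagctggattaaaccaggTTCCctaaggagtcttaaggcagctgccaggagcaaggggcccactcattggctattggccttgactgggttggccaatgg
The core occurred 4 times in the Apoe window, 3 times in the Vldlr window, 6 times in the Cd36 window and 3 times in the Adipoq window, counting both strands. A GGAA core was present in 93.4% of 32851 mouse promoter windows of this length, with a median of 3, so these counts do not mark the genes out. The longer ETS site CCGGAA was in 12% of all windows and in 0 of the 10 windows listed for 6 of the genes. The direct repeat of AGGTCA spaced by 1 base, a form of the PPAR gamma site, was in 0.0335% of all windows and in 0 of these 10. These matches describe letters in a window and were not measured as binding.

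The array values are log2 levels, on which a difference of 1 is a doubling. They are given as deposited and, where stated, centred, meaning that the median of all genes on the array was subtracted. Centring matters because the median level over all probe sets was 9.05 to 9.15 in 9 arrays but 8.30 and 8.29 in the 2 labelled Ets1/2 null. The median gene had a difference of -0.61 between those arrays and wild type as deposited and 0.11 after centring. By the Y-linked gene Eif2s3y, with a log2 value above 6 read as male, wild-type array 1 was male, as was each of the 3 Ets2 null arrays, and 7 were female. The brightest Ets1 probe set read 9.84 to 10.26 for wild type, 8.31 to 9.17 for Ets1 null and 10.02 and 10.29 for the arrays labelled Ets1/2 null, within or just above the wild-type range and against their label. The second Ets1 probe set did the same, at 9.81 in both against 9.67 to 10.08 for wild type. The third ran with the label, at 6.49 and 7.05 against 8.69 to 8.83. The fourth read 7.40 and 7.98 against 8.22 to 8.48. These are deposited values, and on average the fourth lay no further below wild type than the array medians did. It therefore shows no fall of its own. Relative to the array medians, the brightest and second probe sets stood above every wild-type array in both arrays labelled Ets1/2 null. The 4 Ets1 probe sets therefore disagreed on those 2 arrays. The brightest Ets2 probe set read 9.72 to 10.70 for wild type, 9.35 to 10.13 for Ets2 null and 11.02 and 9.63 for the arrays labelled Ets1/2 null. The second Ets2 probe set read 7.61 to 8.17, 7.60 to 7.82, and 8.36 and 7.03 in the same order. Whether any of these probe sets lies in a deleted part is not given in the sources used here, so they may check nothing. Groups are named by their labels throughout, and each direction drawn from the arrays labelled Ets1/2 null rests on that label.

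The cells were also read for markers of their labelled type. Only 7 of 20 endothelial markers were on the table, and Pecam1, Cdh5, Tek, Tie1 and Vwf were not among them. The centred median of those 7 ran from -1.29 to -0.93 for wild type, -1.82 to -1.44 for Ets1 null, -1.50 to -0.01 for Ets2 null and -2.13 to -1.30 for the arrays labelled Ets1/2 null. The fibroblast list, with 12 of 15 genes present, lay at 0.50 to 1.89 for wild type, -0.72 to 0.52 for Ets1 null, 0.73 to 1.77 for Ets2 null and 0.83 to 2.28 for the arrays labelled Ets1/2 null. For smooth muscle and pericytes, with 11 of 15 present, the ranges were -1.93 to -0.29, -1.37 to -1.10, -0.45 to -0.05 and -0.78 to -0.11 in the same order. For macrophages, a usual source of Apoe, Cd36 and Pla2g7, 5 of 20 were present and their median stayed between -2.46 and -1.83 in all 11 arrays. Of these 5, Cd14 alone lay above the median of any array. It read a deposited 10.96, 9.80 and 9.87 for Ets1 null, 8.10, 8.45 and 10.06 for wild type and 6.95 to 7.94 for Ets2 null. In the arrays labelled Ets1/2 null it read 6.64 and 8.79. The part of these cell types in the results was not tested, and in such bulk samples fewer cells of a type and less RNA per cell cannot be told apart.

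Of these genes, 6 had their highest mean in Ets2 null cells, and Vldlr had its highest in the arrays labelled Ets1/2 null. Against wild type, Apoe and Acot11 rose in Ets2 null cells, 2 of 7 genes on both scales, beside 0.3% of all genes called as deposited and 0.436% centred. A gene is called where limma's Benjamini-Hochberg adjusted p over all 11015 genes was under 0.05. In Ets1 null cells 0 of 7 were called by limma on either scale, where 0.00908% of all genes were; 1 of 7 and 949 of all genes had an unadjusted p under 0.05. In the arrays labelled Ets1/2 null against wild type, Apoe fell and Vldlr rose, 2 of 7 against 45.9% of all genes. After centring, Vldlr alone of the 7 was called, beside 28.3% of all genes. In the same comparison Apoe, Vldlr and Pla2g7 had groups that did not overlap as deposited and Apoe and Vldlr after centring, beside 63.6% and 52.3% of all genes. Because the genes were picked with such values in view, nothing is read from these counts.

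**Figure D1:**
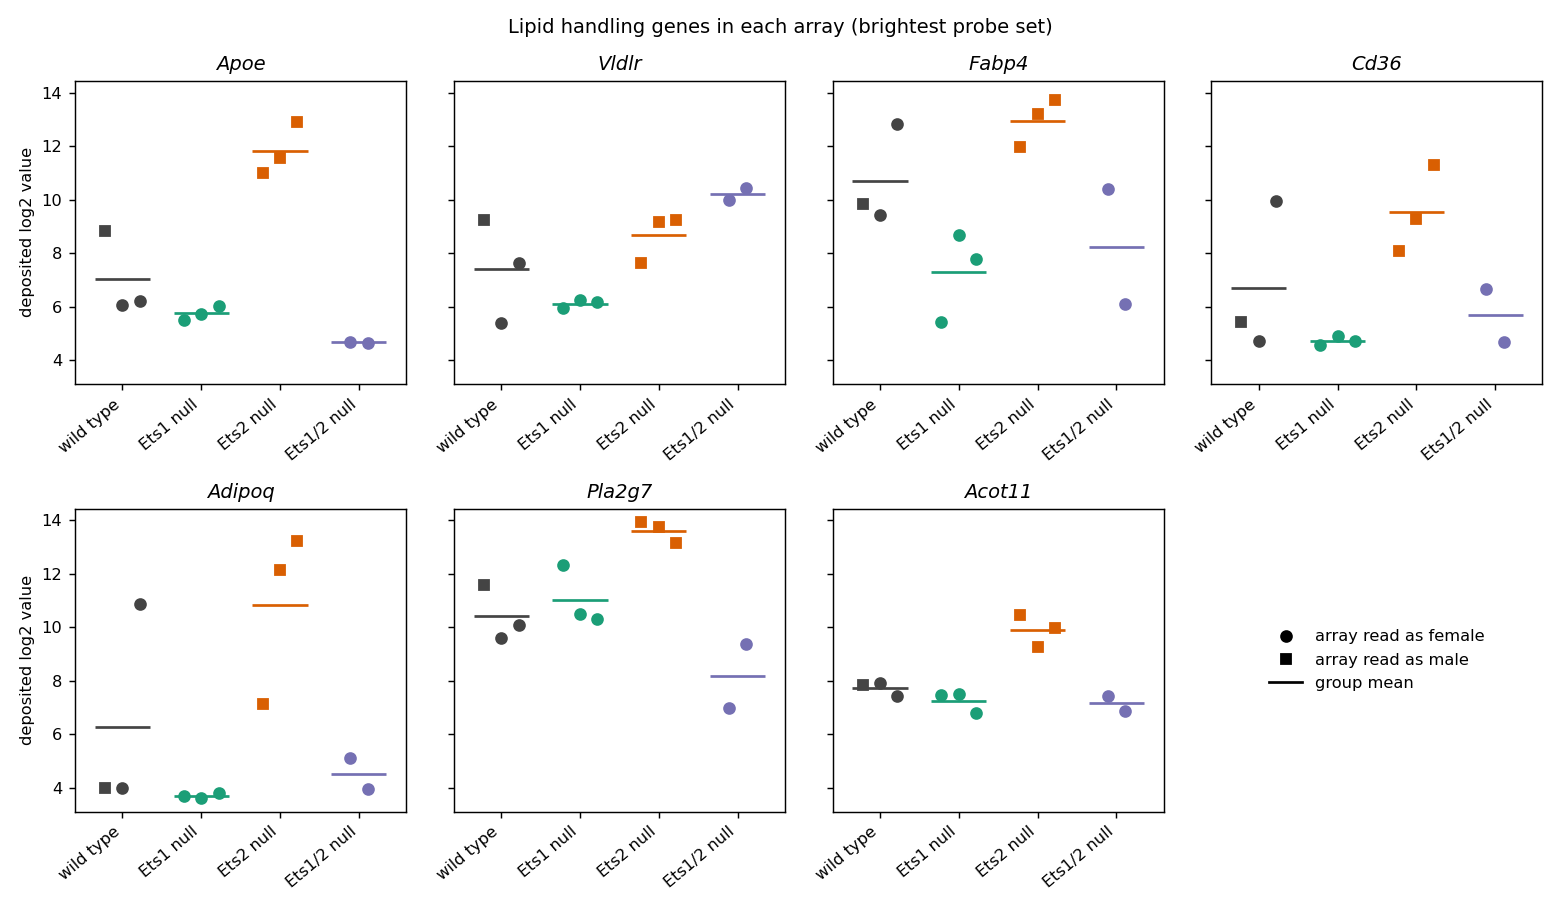
Deposited log2 level (vertical axis) of each of the 7 genes in each of the 11 arrays, by labelled group (horizontal axis), taken from the gene's brightest probe set. Each symbol is 1 array, squares are arrays that read as male and circles as female, and lines are group means; the Ets2 null arrays lie highest for Apoe (11 to 12.92), Pla2g7 and Acot11, and wild-type array 3 lies apart for Cd36 and Adipoq (10.89).

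Apoe, the lipid carrier, was highest in Ets2 null cells and lowest in the arrays labelled Ets1/2 null. Its single probe set read 8.81, 6.06 and 6.20 for wild type, 5.50, 5.71 and 6.03 for Ets1 null, 11, 11.56 and 12.92 for Ets2 null, and 4.69 and 4.63 for the arrays labelled Ets1/2 null. No pair of groups overlapped, and wild-type array 1, the male one, stood above the other wild-type arrays. Centred, with groups in the same order, the arrays read -0.56, -3.37 and -3.29, then -3.97, -3.75 and -3.46, then 1.59, 2.17 and 3.47, then -4.04 and -4.06, still without overlap. Ets2 null exceeded wild type by 4.80 ± 0.72 (log2, SE; n = 3 and 3), which is 28.0-fold. These 2 groups were likewise apart for 26.5% of all genes as deposited and 26.9% centred. Ets1 null and wild type were apart for 17.9% and 18.5%, and the arrays labelled Ets1/2 null and wild type for 63.6% and 52.3%. The call of Apoe in Ets2 null against wild type was kept in 8 of 21 alternative analyses, with differences from 3.02 to 5.70. Leaving out any single array other than wild-type array 1 ended it. The lowest, 3.02, came from a term for male arrays, where the call was lost. It sets Ets2 null against the male wild-type array alone and so rests on that 1 array. The step from wild type down to Ets1 null, -1.28 ± 0.72, was smaller than the wild-type SD of 1.55.

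The largest difference of any of the 7 genes was that of Apoe between the groups labelled as lacking Ets2. The arrays labelled Ets1/2 null lay 7.17 ± 0.80 below Ets2 null, or 144-fold, and 6.46 ± 0.81 below after centring. Apoe fell in this comparison in all 21 alternatives, from -7.58 to -4.49. Against wild type the arrays labelled Ets1/2 null had a difference of -2.36 ± 0.80 as deposited and -1.64 ± 0.81 centred, and this call was lost with centring and in 12 other alternatives, among them leaving out wild-type array 1, Ets2 null array 2, any Ets1 null array or either array labelled Ets1/2 null. The effect of Ets2 loss in cells without Ets1 minus that in cells with Ets1, the interaction, was -5.89 ± 1.08 as deposited and -5.15 ± 1.09 centred. With a term for male arrays it was -4.11. The difference that went with the Ets2 label was 4.80, called, in cells with Ets1. In cells labelled as lacking Ets1 it was -1.09 ± 0.80 as deposited and -0.33 ± 0.81 centred, called on neither scale.

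Vldlr, the receptor, took a different order from the other genes. Its brightest probe set read 9.25, 5.37 and 7.62 for wild type, 5.94, 6.23 and 6.18 for Ets1 null, 7.64, 9.16 and 9.25 for Ets2 null, and 10 and 10.43 for the arrays labelled Ets1/2 null. Those 2 arrays stood above all 9 others although their array medians were the lowest, and the wild-type arrays spread over the range of both single nulls. Centred, in the same order, they read -0.12, -4.06 and -1.88, then -3.53, -3.23 and -3.31, then -1.77, -0.23 and -0.20, then 1.27 and 1.74. Vldlr was higher in the arrays labelled Ets1/2 null than in Ets1 null by 4.10 ± 0.93 as deposited, 17.1-fold, and by 4.86 ± 0.94 centred. The call stood in 21 of 21 alternatives, from 3.43 to 4.86, the highest being the centred value. In this comparison 2 of 7 were called as deposited, Vldlr and Pla2g7, beside 44.5% of all genes, and Vldlr alone after centring, beside 28.7%; 1.72% of all genes were called higher on both scales. Groups did not overlap for 4 of 7 as deposited and 6 of 7 centred, beside 67.2% and 58.3% of all genes. Against wild type the difference was 2.81 ± 0.93, 7.0-fold, and 3.53 ± 0.94 centred, called in 12 of 21 alternatives. The call ended without wild-type array 2 or 3, Ets1 null array 2 or 3, or either array labelled Ets1/2 null.

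The 4 Vldlr probe sets ranked the groups alike. With groups in the same order, the second read 8.95, 5.35 and 7.43, then 5.17, 5.50 and 6.07, then 7.54, 8.91 and 8.78, then 9.17 and 9.97. The third read 8.11, 5.50 and 6.67, then 5.37, 5.18 and 5.73, then 7.20, 8.65 and 8.17, then 8.92 and 9.31. The fourth read 7.75, 5.47 and 6.55, then 5.83, 6.25 and 6.09, then 6.78, 7.91 and 7.35, then 7.66 and 8.33. In each, the arrays labelled Ets1/2 null stood above all Ets1 null arrays. Centred, the second read -0.42, -4.08 and -2.07, then -4.30, -3.96 and -3.42, then -1.87, -0.48 and -0.67, then 0.43 and 1.28. The third read -1.26, -3.93 and -2.83, then -4.10, -4.28 and -3.76, then -2.20, -0.74 and -1.28, then 0.18 and 0.62. The fourth read -1.62, -3.96 and -2.95, then -3.64, -3.21 and -3.40, then -2.63, -1.48 and -2.10, then -1.08 and -0.36. On this scale the same 2 arrays were the highest of all 11 in every probe set. All 4 were called in that comparison on both scales, by 4.10, 3.99, 3.69 and 1.94 as deposited. Against wild type 2 of 4 passed as deposited and 4 of 4 after centring. Between Ets2 null and wild type Vldlr differed by 1.27 ± 0.83 and was not called. Set against the male wild-type array alone, Ets2 null lay 0.57 lower, because that array held the highest wild-type value, 9.25.

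**Figure D2:**
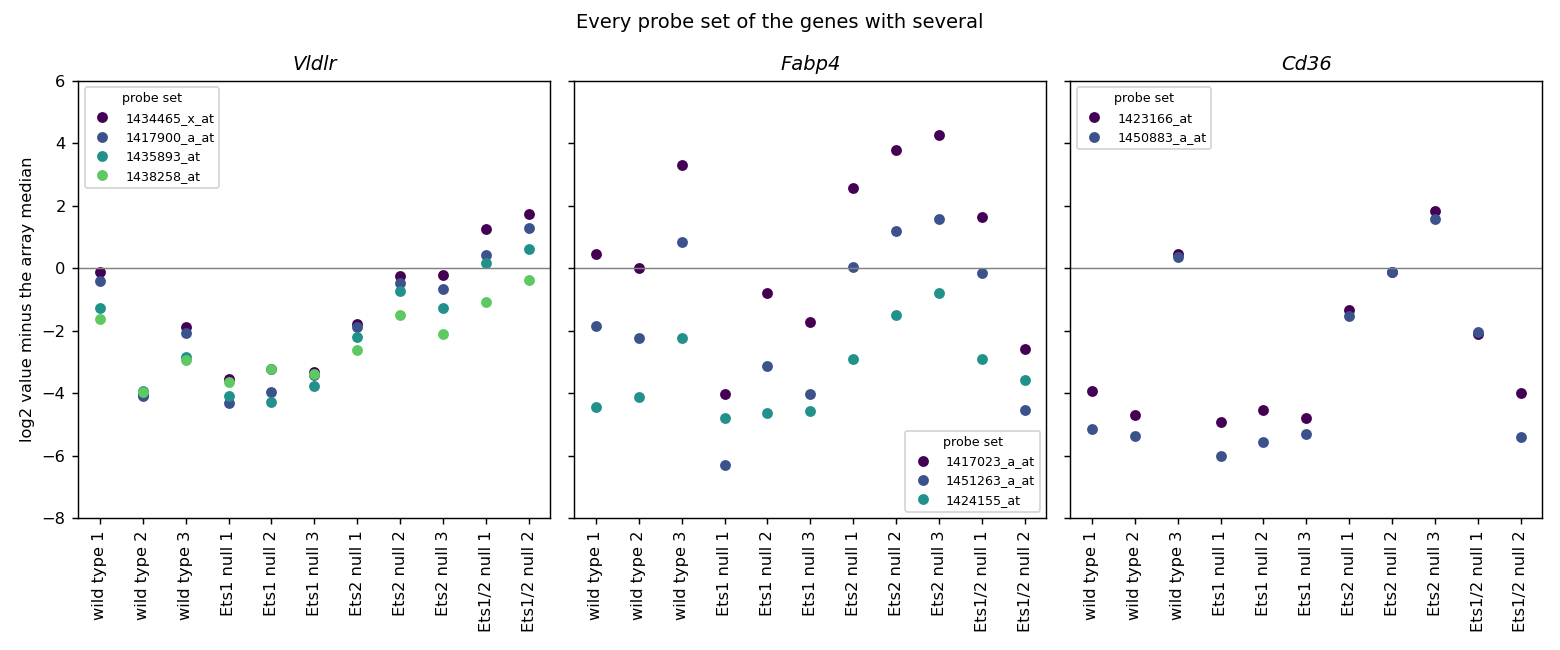
Log2 value minus the array median (vertical axis) of every probe set of Vldlr, Fabp4 and Cd36 in each array (horizontal axis), 1 colour per probe set. The 4 Vldlr probe sets are all highest in the 2 arrays labelled Ets1/2 null, and all Fabp4 and Cd36 probe sets stand high in wild-type array 3 and in Ets2 null.

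Cd36, the fatty acid transporter, and Fabp4, the intracellular carrier, shared their high arrays. The first Cd36 probe set read 5.43, 4.72 and 9.95 for wild type, 4.55, 4.91 and 4.70 for Ets1 null, 8.07, 9.26 and 11.30 for Ets2 null, and 6.65 and 4.69 for the arrays labelled Ets1/2 null. The second gave 4.23, 4.06 and 9.84, then 3.47, 3.90 and 4.16, then 7.88, 9.26 and 11.03, then 6.69 and 3.30. Wild-type array 3 lay within the Ets2 null range on both, far above the other wild-type arrays. Centred, the first probe set gave -3.94, -4.71 and 0.46, then -4.92, -4.55 and -4.79, then -1.34, -0.13 and 1.85, then -2.09 and -4.0. The second then gave -5.14, -5.37 and 0.35, then -6.0, -5.56 and -5.32, then -1.53, -0.13 and 1.58, then -2.04 and -5.39. Cd36 was not called in any comparison on either scale. Its difference between Ets2 null and wild type was 2.84 ± 1.31 with that array and 4.47 without it.

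Fabp4 was highest in Ets2 null cells and had its lowest value in Ets1 null array 1. Its brightest probe set read 9.83, 9.43 and 12.82 for wild type, 5.43, 8.68 and 7.77 for Ets1 null, 11.97, 13.19 and 13.71 for Ets2 null, and 10.39 and 6.10 for the arrays labelled Ets1/2 null. The Ets1 null arrays all lay below the wild-type arrays, and groups were apart in either direction for 17.9% of all genes as deposited and 18.5% centred; the difference was -3.40 ± 1.31. The 2 arrays labelled Ets1/2 null lay far apart, with a group SD of 3.03. Centred values were 0.46, 0.00 and 3.32, then -4.04, -0.78 and -1.72, then 2.56, 3.80 and 4.26, then 1.65 and -2.59. Fabp4 fell between Ets2 null and the arrays labelled Ets1/2 null by 4.72 ± 1.46 as deposited, with all 3 probe sets called. After centring the difference was -4.01 ± 1.44 and 0 of the 3 were called. Without 1 or the other of those arrays the deposited difference was -6.86 or -2.57, and only the first of these stayed called. Leaving out Ets2 null array 2 or 3 also ended the call.

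The other Fabp4 probe sets were high and low in the same groups. With groups in the order above, the second read 7.53, 7.21 and 10.33, then 3.17, 6.34 and 5.47, then 9.44, 10.61 and 11.03, then 8.58 and 4.15, and centred -1.84, -2.22 and 0.83, then -6.30, -3.12 and -4.02, then 0.03, 1.21 and 1.58, then -0.15 and -4.54. The third read 4.94, 5.32 and 7.28, then 4.68, 4.82 and 4.91, then 6.50, 7.88 and 8.67, then 5.84 and 5.12, and centred -4.43, -4.11 and -2.22, then -4.79, -4.64 and -4.58, then -2.91, -1.51 and -0.78, then -2.89 and -3.57. Wild-type array 3 was the highest wild-type array in each. For Ets2 null against wild type the third differed by 1.84 ± 0.66, beside 2.27 and 2.00 for the others.

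Adipoq, the fat cell hormone, lay between 3.63 and 4.01 in 6 arrays and at 10.89 or higher in 3. Its probe set read 3.98, 4.01 and 10.89 for wild type, 3.70, 3.63 and 3.80 for Ets1 null, 7.15, 12.16 and 13.22 for Ets2 null, and 5.10 and 3.96 for the arrays labelled Ets1/2 null. Wild-type array 3 again lay with Ets2 null, and Ets2 null array 1 lay below the other 2. Centred values were -5.39, -5.42 and 1.40, then -5.77, -5.83 and -5.69, then -2.25, 2.77 and 3.77, then -3.64 and -4.73. The wild-type SD was 3.98 and that of Ets2 null was 3.24. The mean difference of 4.55 ± 1.98 was not called. It was 6.85 without wild-type array 3 and 6.87 against the male wild-type array alone. The difference between the arrays labelled Ets1/2 null and Ets2 null, -6.32 ± 2.21, was called as deposited but not centred, at -5.61 ± 2.19, and was kept in 8 of 21 alternatives. Leaving out any Ets1 null array, Ets2 null array 2 or 3, or either array labelled Ets1/2 null ended it. Against wild type those arrays differed by -1.77 ± 2.21, and by 0.53 without wild-type array 3.

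Lpl and Pparg, also genes of fat cells, were high in the same arrays. Lpl read 7.10, 7.44 and 12.44 for wild type, 5.92, 6.31 and 5.79 for Ets1 null, 9.87, 12.50 and 13.67 for Ets2 null, and 10.53 and 5.10 for the arrays labelled Ets1/2 null. Pparg read 10.32, 7.34 and 11.80, then 8.65, 6.48 and 7.23, then 11.61, 11.64 and 12.22, then 9.69 and 8.96. Both genes thus set wild-type array 3 beside Ets2 null, and Lpl also split the 2 arrays labelled Ets1/2 null as Fabp4 and Cd36 did. Neither was called for Ets2 null against wild type, at 3.02 ± 1.72 for Lpl (adjusted p = 0.372) and 2.00 ± 0.99 for Pparg (adjusted p = 0.308). The adipocyte marker list held 10 of 18 genes, Adipoq, Fabp4 and Cd36 not among them, and its centred median was -1.60, -1.92 and 0.65 in the wild-type arrays. It was -2.09 to -1.64 for Ets1 null, -0.45, 0.27 and 1.76 for Ets2 null, and -1.21 and -1.79 for the arrays labelled Ets1/2 null. Plin1, Cidec, Lep and Cfd were not on the table, and the part of fat cells in the levels of these genes was not tested.

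**Figure D3:**
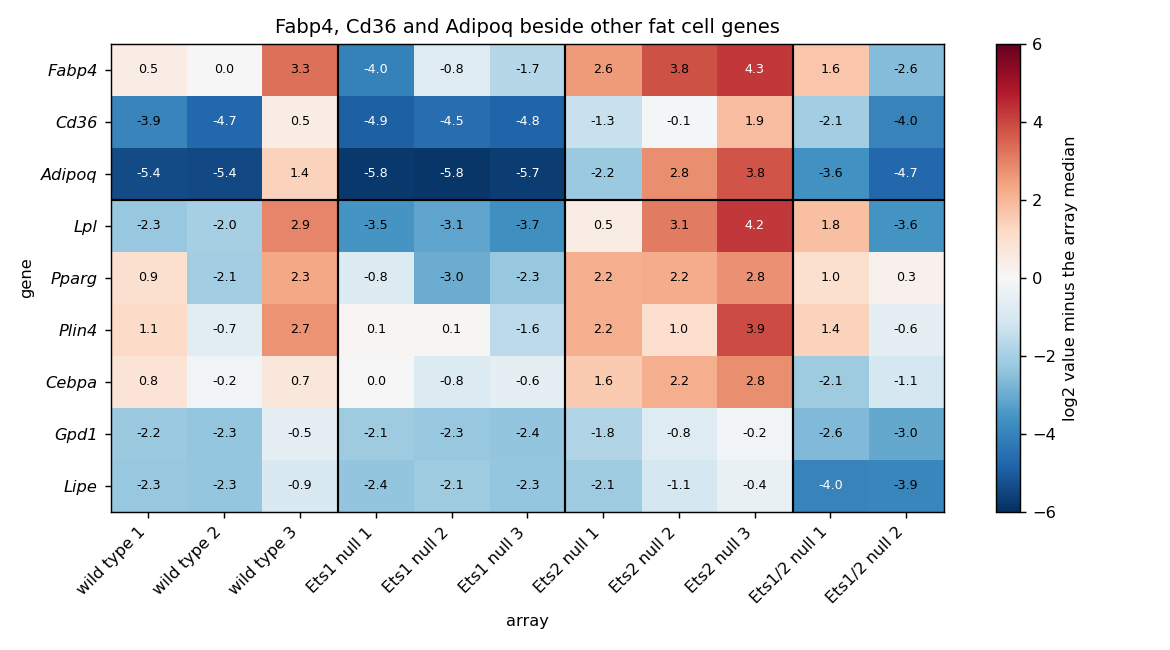
Heat map of the log2 value minus the array median, printed in each cell, for Fabp4, Cd36 and Adipoq above the black line and 6 other fat cell genes below it (rows), in each array (columns). The 6 were picked from the adipocyte marker list, and its genes Retn, Ucp1, Fasn and Dgat2 are not drawn. Of these, Ucp1 ran the other way, at a deposited 5.86, 5.35 and 5.44 for Ets2 null against 6.31 to 7.13 for wild type. Fasn overlapped between those groups, at 11.67 to 12.12 against 11.22 to 11.97. Retn was highest in Ets2 null but, among wild-type arrays, lowest in array 3. Dgat2 was highest in wild-type array 3 and Ets2 null array 3. Wild-type array 3 and the Ets2 null arrays carry the highest Cd36 and Adipoq values, while Cebpa and Lipe are lowest in the arrays labelled Ets1/2 null.

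Pla2g7, the lipoprotein-associated phospholipase, was highest in Ets2 null cells and lowest in the arrays labelled Ets1/2 null. Its probe set read 11.59, 9.62 and 10.10 for wild type, 12.32, 10.49 and 10.30 for Ets1 null, 13.92, 13.77 and 13.15 for Ets2 null, and 7.0 and 9.39 for the arrays labelled Ets1/2 null. Ets2 null lay above every other array, the arrays labelled Ets1/2 null below every other, and wild type and Ets1 null overlapped. As deposited, Ets2 null and wild type were apart for 26.5% of all genes. The arrays labelled Ets1/2 null were apart from wild type, Ets1 null and Ets2 null for 63.6%, 67.2% and 64.2%. After centring the values were 2.22, 0.19 and 0.60, then 2.85, 1.03 and 0.81, then 4.51, 4.38 and 3.70, then -1.73 and 0.70, and array 2 labelled Ets1/2 null fell within the wild-type range. Ets2 null exceeded wild type by 3.18 ± 0.76, 9.06-fold, which was not called. The arrays labelled Ets1/2 null lay 5.42 ± 0.85 below Ets2 null, 42.7-fold, and 4.71 ± 0.87 below after centring. Pla2g7 was lower in this comparison in all 21 alternatives and was called in 20 of them. The call was lost with a term for male arrays, which gave the smallest difference, -3.69. Against Ets1 null it fell by 2.84 ± 0.85 as deposited and had -2.08 ± 0.87 centred, not called. Without the first array labelled Ets1/2 null that difference was -1.64 and not called, and without Ets1 null array 1 the call was also lost. The interaction was -6.02 ± 1.14 as deposited and -5.27 ± 1.16 centred, called in all 20 alternatives that could give it.

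Acot11, the acyl-CoA thioesterase, had the smallest SE of the 7 genes. Its probe set read 7.83, 7.91 and 7.42 for wild type, 7.48, 7.51 and 6.80 for Ets1 null, 10.48, 9.28 and 9.99 for Ets2 null, and 7.43 and 6.88 for the arrays labelled Ets1/2 null. The Ets2 null arrays stood above all others, and the remaining groups overlapped. After centring they read -1.54, -1.52 and -2.08, then -1.99, -1.96 and -2.69, then 1.07, -0.11 and 0.54, then -1.30 and -1.81, with Ets2 null still apart. The arrays labelled Ets1/2 null and Ets1 null no longer overlapped on that scale, beside 58.3% of all genes. Ets2 null and wild type were likewise apart for 26.5% of all genes as deposited and 26.9% centred. For Ets2 null and the arrays labelled Ets1/2 null those shares were 64.2% and 55.4%. Acot11 rose in Ets2 null against wild type by 2.20 ± 0.33, 4.58-fold, and was 2.09 above the male wild-type array. The call was kept in 8 of 21 alternatives, with differences of 1.90 to 2.51, and leaving out any single array other than Ets2 null array 2 ended it. In the arrays labelled Ets1/2 null it lay 2.76 ± 0.36 below Ets2 null, 6.79-fold, and 2.06 ± 0.37 below after centring, called in 21 of 21 alternatives. Its difference from wild type there was -0.57 ± 0.36 as deposited and 0.15 ± 0.37 centred.

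In the comparison of the arrays labelled Ets1/2 null with Ets2 null, 5 of the 7 genes were called as deposited, all lower, beside 46.3% of all genes. After centring 3 were called, Apoe, Pla2g7 and Acot11, beside 30.3% of all genes. By their brightest probe sets all 7 had groups that did not overlap on either scale, as did 64.2% of all genes as deposited and 55.4% centred. The fourth Vldlr probe set did overlap as deposited, and the third of Fabp4 after centring. The means of 6 of the 7 were lower there and that of Vldlr was higher, by 1.53 ± 0.93, which was not called. With a term for male arrays, where all Ets2 null arrays were male and both arrays labelled Ets1/2 null female, the Vldlr difference was 4.29 and called, and the genes called were then Apoe, Vldlr and Acot11. In the interaction 3 of 7 were called, beside 31.6% of all genes, and after centring 2 of 7 beside 14.5%. These comparisons share arrays and are not independent of each other.

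**Figure D4:**
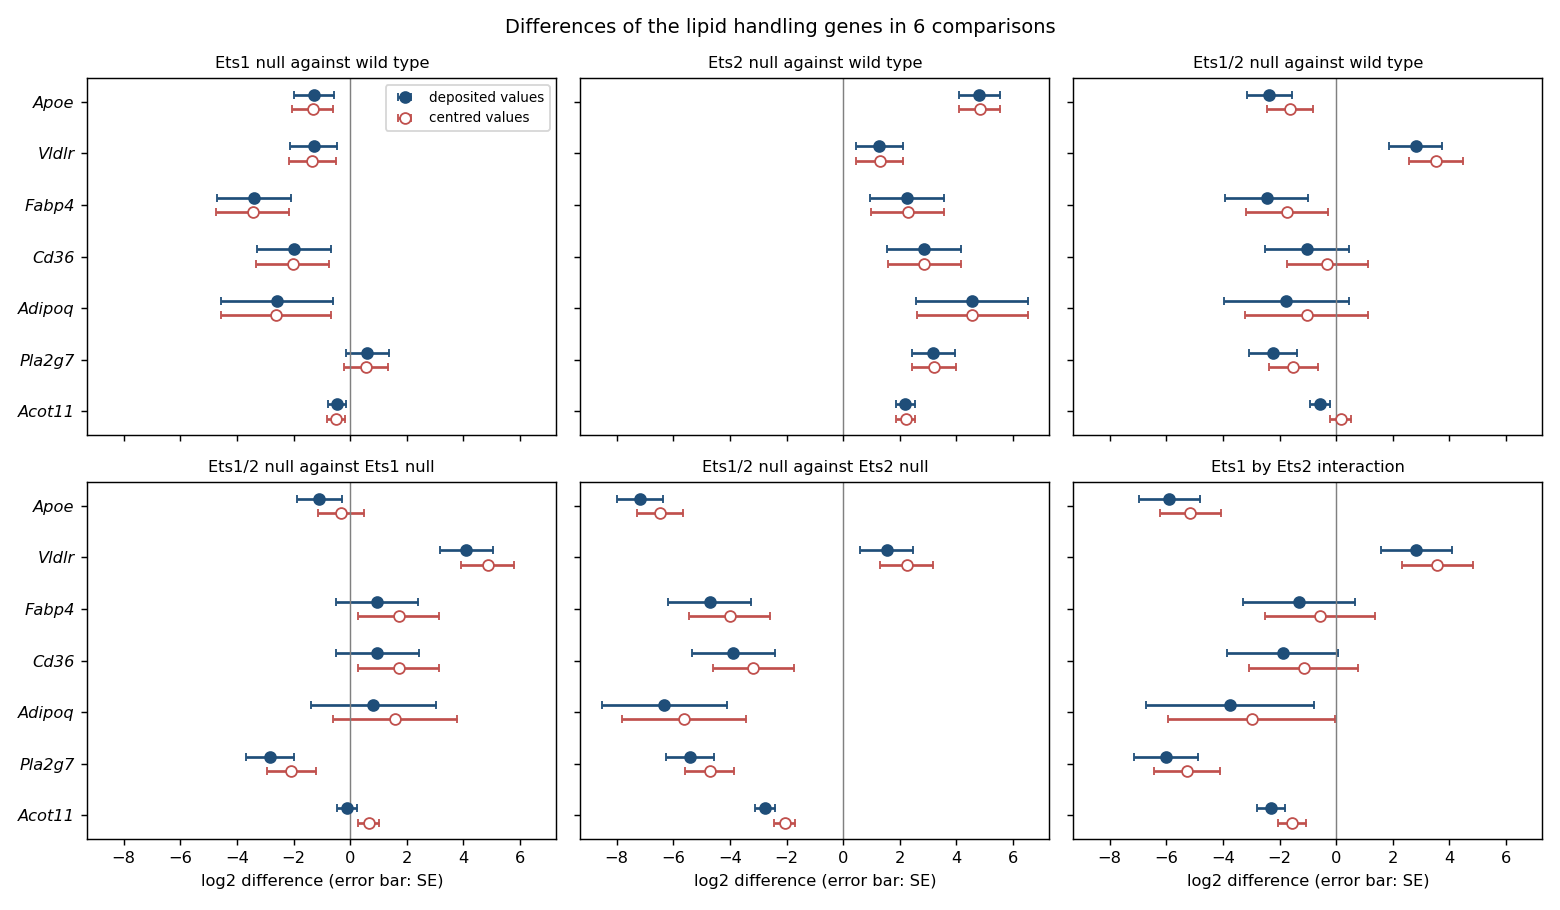
Log2 difference between groups (horizontal axis, error bars are limma's SE) for the 7 genes (vertical axis) in 5 group comparisons and the interaction, filled for deposited and open for centred values. Apoe reaches -7.17 in the arrays labelled Ets1/2 null against Ets2 null, Vldlr is positive in every comparison except Ets1 null against wild type, and the bars of Adipoq are the widest.

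Across the 11 arrays the levels of these genes followed each other to different degrees. These correlations of centred values describe the same 11 libraries, which share the 4 groups, and carry no test. Cd36 and Adipoq had r = 0.966, Fabp4 and Cd36 r = 0.897, and Fabp4 and Adipoq r = 0.851. Apoe had r = 0.873 with Acot11 and 0.812 with Pla2g7. Pla2g7 and Fabp4 had only 0.308, and Vldlr ranged from -0.054 with Pla2g7 to 0.406 with Cd36. Lpl had r = 0.959 with Cd36, 0.932 with Fabp4 and 0.923 with Adipoq.

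Among 7480 genes above the median level in at least 1 array, Lnx1 (0.967), Efs (0.961) and Akt2 (0.961) followed Apoe most closely, and Sqle, the squalene epoxidase gene of cholesterol synthesis, ran most against it (-0.948). For Vldlr the closest were Pebp1 (0.961), Phip (0.935) and Fbxl5 (0.928), and Smpdl3b was the most opposed (-0.908). For Fabp4 they were Pdxdc1 (0.932), Lpl and S1pr3 (0.921), with Plac8 opposed (-0.978). Ccdc3 followed both Cd36 (0.967) and Adipoq (0.960), with Otud7b (-0.916) and Mettl14 (-0.872) opposed to them. Mrc2 (0.916), Crip2 (0.915) and Col18a1 (0.912) were closest to Pla2g7, and Elovl5, a fatty acid elongase gene, was opposed (-0.972). Fam214a (0.955), Inka1 (0.920) and Kctd1 (0.918) were closest to Acot11, with Nudt21 opposed (-0.915).

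The wider lipid pathways were read from 9 lists of 232 other genes, of which 154 were on the table. In either single null against wild type 0 of 154 were called as deposited by limma, where 13 and 39 had an unadjusted p under 0.05. After centring 1 was called, lower in Ets2 null. In the arrays labelled Ets1/2 null against Ets2 null, 10 were called higher and 70 lower as deposited, 51.9% in all beside 46.3% of all genes. Called on both scales were 10 higher and 32 lower, 6.49% and 20.8%, beside 3% and 13.2% of all genes. Their median difference was -0.79 as deposited beside -0.57 for all genes, and -0.08 centred beside 0.14. Against wild type 4 were higher and 24 lower on both scales, 2.6% and 15.6%, beside 2.32% and 12% of all genes. The same numbers of the 154 were found against Ets1 null, beside 1.72% and 11.3% of all genes. The examples below were taken from the up to 3 genes of each list with the largest differences called on both scales in any comparison, and not all of those are shown. Their adjusted p and SE are for deposited values from limma.

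Among lipoprotein carriers, with Apoe's relatives, 1 of 15 was called higher and 1 lower on both scales in the arrays labelled Ets1/2 null against Ets2 null. Of all genes 3% were called higher and 13.2% lower in this way. The sterol transporter gene Abcg4 fell by 1.63 ± 0.13 (adjusted p = 3.46e-05). Among lipoprotein receptors, the list next to Vldlr, 4 of 10 fell and 0 rose on both scales. The multiligand receptor gene Lrp1, which also binds apolipoprotein E, fell from 12.85, 12.64 and 13.25 in Ets2 null to 10.60 and 11.12, by 2.05 ± 0.30 (adjusted p = 0.000616). Scarb2, of the CD36 family, fell by 2.32 ± 0.42 (adjusted p = 0.00206). The high-density lipoprotein receptor gene Scarb1 fell against wild type by 2.42 ± 0.25 (adjusted p = 0.000114), from 10.42, 10.70 and 10.15 to 8.03 and 7.98.

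Of 14 genes of fatty acid uptake and binding, 2 rose and 2 fell on both scales between Ets2 null and the arrays labelled Ets1/2 null. Beside this and the next 2 lists stand 3% of all genes called higher and 13.2% lower. The fatty acid transport protein gene Slc27a1 fell by 2.35 ± 0.33 (adjusted p = 0.000508), and the acyl-CoA synthetase gene Acsbg1 rose by 1.76 ± 0.58 (adjusted p = 0.0329), with only 1 of its 2 arrays, at 8.56, far above the rest. Of 12 lipolysis genes 2 fell and 0 rose. Lipe, the hormone-sensitive lipase gene, fell from 7.26, 8.35 and 9.02 to 4.70 and 4.78, by 3.47 ± 0.54 (adjusted p = 0.000848). Of 20 genes of the fat cell and PPAR gamma programme, 7 fell and 1 rose. Cebpa, a transcription factor of fat cell formation, fell from 10.97, 11.57 and 12.26 to 6.60 and 7.64, by 4.47 ± 0.47 (adjusted p = 0.000114), and Dgat1, which makes triglyceride, by 2.97 ± 0.32 (adjusted p = 0.000121). Pparg was not called there, at -2.50 ± 1.10 (adjusted p = 0.0933).

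Of 20 phospholipase and eicosanoid genes, the list next to Pla2g7, 3 rose and 3 fell on both scales. For this list and those below, the shares of all genes were again 3% higher and 13.2% lower. Ptgs2, the inducible cyclooxygenase, read 9.99, 10.50 and 7.52 for wild type, 5.88, 6.09 and 4.25 for Ets2 null, and 11.58 and 11.41 for the arrays labelled Ets1/2 null. It rose by 6.09 ± 0.83 (adjusted p = 0.000407), opposite in sign to Pla2g7. Mboat2, a lysophospholipid acyltransferase, rose by 2.66 ± 0.48 (adjusted p = 0.00196). Of 11 acyl-CoA thioesterase and related genes, the list of Acot11, 1 rose and 3 fell. Lypla2 fell by 1.96 ± 0.18 (adjusted p = 5.75e-05), and against Ets1 null the peroxisomal thioesterase gene Acot8 fell by 2.70 ± 0.17 (adjusted p = 9.78e-06). Of 30 fatty acid oxidation genes 7 fell and 0 rose, among them Acadvl, the very long-chain acyl-CoA dehydrogenase, by 2.90 ± 0.20 (adjusted p = 1.79e-05) and Cpt1c by 3.03 ± 0.28 (adjusted p = 6.43e-05). Of 22 genes of fatty acid synthesis and desaturation 2 rose and 3 fell, with fatty acid synthase, Fasn, lower by 2.60 ± 0.31 (adjusted p = 0.000202).

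**Figure D5:**
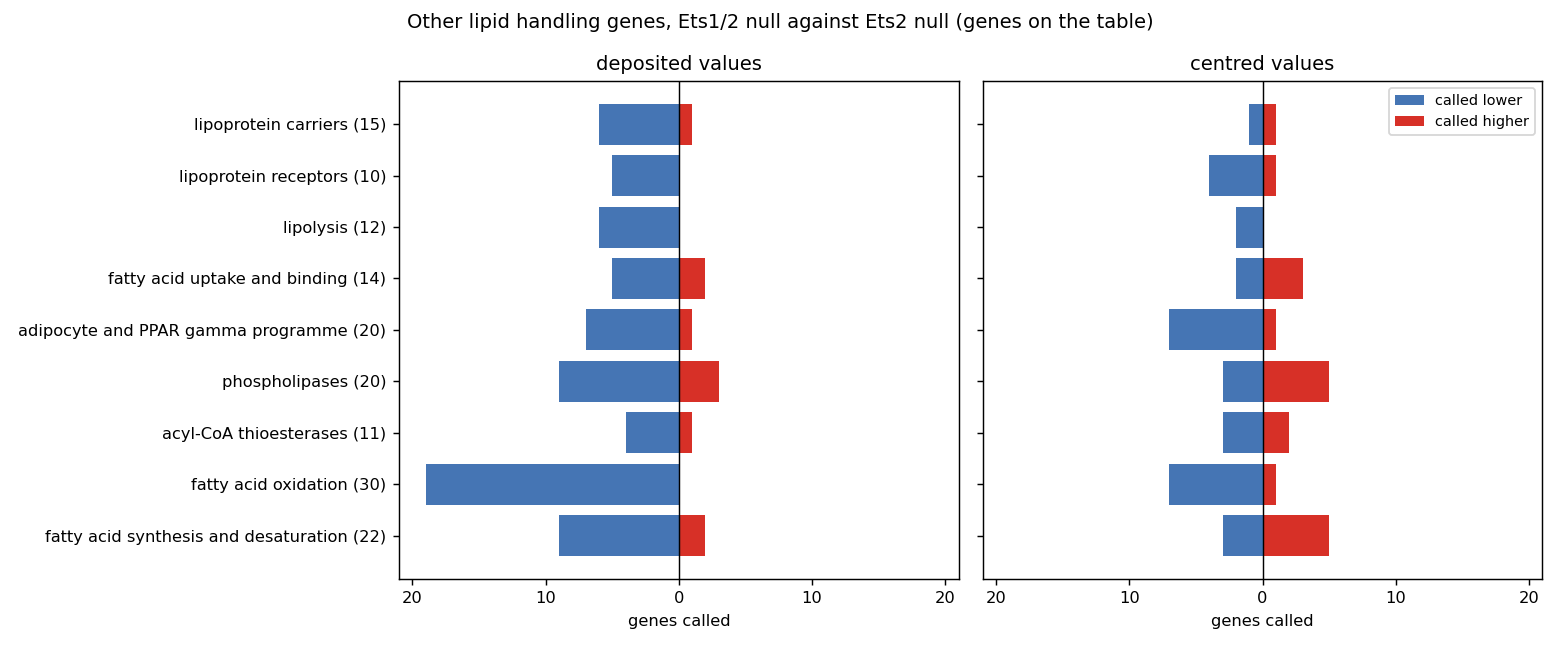
Number of genes called higher (right, red) and lower (left, blue) in the arrays labelled Ets1/2 null against Ets2 null for each list of other lipid genes (vertical axis, with the genes on the table in brackets), as deposited and after centring. Fatty acid oxidation has 19 of 30 lower as deposited and 7 after centring. The fat cell and PPAR gamma list keeps 7 of 20 lower on both. Over all 11015 genes, 5103 were called as deposited, 330 of them higher, and 3336 after centring, 1882 of them higher. Called lower on both scales were 13.2% of all genes.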

How the data were processed

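Total RNA of cultured aortic endothelial cells was measured on Affymetrix arrays, per the labels. The deposited values are log2 levels of probe sets, made with RMA per the submitters' processing notes. The RMA version and any filter on probe sets were not given in the sources used here. The table held 12 columns and 20523 probe sets. Of these, 18824 carried 1 symbol in the probe annotation, 549 several and 1150 none, and the brightest probe set on average over 11 arrays stood for each of the 11015 genes. Within 1e-06, a column labelled Ets1/2 null was the average of its 2 partners in 20521 probe sets, and it was left out.

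limma 3.58.1 (lmFit and eBayes, R 4.3.3) fitted a mean per group over all genes, two-sided, with 7 residual degrees of freedom and Benjamini-Hochberg adjustment. The fit was repeated on centred values, from which the array's median gene had been subtracted. Errors of differences are limma's SE, and fold changes are 2 to the power of the log2 difference. The number of arrays limits the precision. The labels call the arrays biological replicates without saying whether each came from its own animal, so p-values reflect only the spread among these arrays. The third arrays of wild type and Ets2 null had the lowest array weights, 0.303 and 0.296.

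The genes and the lists were chosen with earlier results of these data known. Named were all 7 genes, for each the 3 genes with the highest and the 1 with the lowest Pearson correlation, and up to 3 called genes per list by size of difference. The single null descriptions call the deleted gene wild type; titles and genotypes were followed. Arrays with the same replicate number did not deviate together (r of -0.325 to 0.104 over 15 pairs, 1 above 0.1), so the numbers were not taken as pairs. Promoter windows came from RefSeq (GRCm38.p6) and were searched on both strands. The fits were run on simulated data with independent normal noise and differences placed in Ets2 null only. Sex, lower array medians and outlying arrays were not simulated, so that run does not bear on them. Alternatives were centring, quantile normalization, the mean of probe sets, every probe set on its own, a filter on low values, each array left out, a replicate block, the compared groups alone, the third column kept, a term for male arrays, and array weights. pandas 2.3.3 and matplotlib 3.10.9 made tables and plots.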

Additional observations from a re-analysis of the deposited data

Results flagged for a closer look

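The Ets2 label went with unequal differences in cells with and without Ets1 for 3 of the genes as deposited, by the limma interaction term. For Apoe the difference was 4.80, called, in cells with Ets1. In cells labelled as lacking Ets1 it was -1.09 as deposited and -0.33 centred, called on neither scale, an interaction of -5.89 ± 1.08 (log2, SE). For Pla2g7 it was 3.18, not called, and -2.84, called as deposited but not centred, at -2.08, an interaction of -6.02 ± 1.14. For Acot11 it was 2.20, called, and -0.11 as deposited or 0.65 centred, neither called, an interaction of -2.31 ± 0.49 as deposited and -1.56 ± 0.49 after centring, where it was no longer called. The interaction was called for 31.6% of all genes, the genes were chosen with these arrays in view, and the term rests on 2 arrays labelled Ets1/2 null. Every Ets2 null array read as male and every Ets1 null or Ets1/2 null array as female, so sex is mixed into this term. With a term for male arrays the Apoe interaction was -4.11, and the Apoe difference in cells with Ets1 was 3.02.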

How the results depend on the processing

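For the 7 genes, the count called in Ets2 null against wild type was 2, with a range of 0 to 1 on leaving out each array. It was 0 with the replicate block, with the compared groups alone and with a term for male arrays, and 5 with array weights. In the arrays labelled Ets1/2 null against wild type it was 2 (0 to 2), with 1 after centring, quantile normalization or the male term, and 0 with the replicate block, the compared groups alone or array weights. Against Ets1 null it was 2 (1 to 2), with 1 after centring, quantile normalization or array weights. Against Ets2 null it was 5 (3 to 6), with 3 after centring, quantile normalization, the replicate block or the male term, under which Vldlr was called and Pla2g7, Fabp4 and Adipoq were not. The interaction count was 3 (3 to 4), and the Ets1 null count was 0 throughout the arrays left out. The block changed no other count of the 7 by over 1.5 times.

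For the 154 other lipid genes, Ets1 null against wild type had 0 (0 to 1) and 4 with array weights. Ets2 null against wild type had 0 (0 to 1), with 1 after centring, quantile normalization or the mean of probe sets, 2 with every probe set, 8 with the third column and 22 with array weights. The arrays labelled Ets1/2 null against wild type had 80 (59 to 84), 40 centred and 36 with quantile normalization, beside 45.9%, 28.3% and 25.6% of all genes. Against Ets1 null they had 65 (51 to 72), 41 and 43, beside 44.5%, 28.7% and 23.9%. Against Ets2 null they had 80 (64 to 83), 51 and 51, beside 46.3%, 30.3% and 27.1%. With the male term it was 34, beside 19.9% of all genes. The interaction had 57 (44 to 58), 32 and 28, beside 31.6%, 14.5% and 11.9%. No called difference of the 7 genes changed sign in any alternative. Over all genes, Ets2 null against wild type had 33 called, 0 without Ets2 null array 1, 5 with the replicate block, 4 with the male term and 1044 with array weights. With 1 male wild-type array and 2 arrays labelled Ets1/2 null, sex and label could be weighed only on those arrays. The cause of these changes was not tested.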

Other observations

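Of the 7 genes, 6 had their highest mean in Ets2 null cells, and 3 of these 6 (Apoe, Pla2g7 and Acot11) had their lowest mean in the arrays labelled Ets1/2 null as deposited; after centring this held for 2 of them, Apoe and Pla2g7. In the deposited values of the brightest probe sets the 2 arrays labelled Ets1/2 null lay 4.29 apart for Fabp4 and 1.95 for Cd36. They lay 5.43 apart for Lpl, 2.39 for Pla2g7 and 0.07 for Apoe. The third Fabp4 probe set split them less, at 5.84 and 5.12.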
